A study of Mus musculus with 6 samples.

Results

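The IgH locus, which encodes the immunoglobulin heavy chain, ends on its 3′ side with the constant-region genes, the 3′ regulatory region and a group of sites for the insulator protein CTCF. Open chromatin over this end of the locus was described in 6 ATAC-seq peak lists from mouse pro-B cell lines. Where peaks from any of the 6 lists overlapped by at least 1 bp they were joined into a region. Regions with their midpoint between 114420000 and 114655000 on chromosome 12 of build mm9, a window of 235 kb, were kept. They numbered 40 of 149724 regions in the whole series. They are numbered here from R1 at the centromeric end, which is the 3′ end of the locus, to R40 at the end facing the J, D and VH segments.

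In the pro-B lines CBE_1 and CBE_2 the control region IGCR1 is mutated (genotype IGCR1-/-), and the WT line carries wild-type IgH alleles. All 3 lines are RAG2-deficient, so they lack a subunit of the recombinase that rearranges the locus. They derive from bone marrow of strain 129SV and were grown untreated in RPMI medium with serum. Each line had 2 libraries made from 200000 cells. The peak names inside the lists do not carry the names of the lines, so each list was taken for the sample it is filed under, with no other check of that assignment. The labels do not say whether the libraries of a line were grown separately, so the spread within a line may be technical. With 1 WT line, line and genotype cannot be told apart.

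IGCR1 is a control region with CTCF-binding elements between the VH and D segments, on the far side of the J and D segments from the window described here. Together with the CTCF sites at the 3′ end it helps to form the chromatin loop that holds D and J segments apart from the VH segments. Ighm and Ighd encode the constant parts of IgM and IgD, the first classes a B cell expresses. Ighg3, Ighg1 and Ighg2b encode IgG subclasses, Ighe encodes IgE and Igha encodes IgA, and these are reached later by class switching. The 3′ regulatory region is a set of enhancers downstream of Igha that drives switching and high heavy chain expression in mature B and plasma cells.

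All 7 named genes were found in the RefSeq gene table of GRCm38.p6, where the order from the centromere is Igha, Ighe, Ighg2c, Ighg2b, Ighg1, Ighg3, Ighd and Ighm. That is another build than mm9, so no single region was assigned to a gene or an enhancer. For the same reason the markers of pro-B cells could not be looked up, and whether Ighm itself lies inside the window was not checked. The reads come from 129SV DNA while mm9 is a C57BL/6J sequence, and the constant genes of these strains differ. The tandem repeats of switch regions are hard to map. A stretch without peaks is therefore not shown to be closed, and the part of either in these values was not tested.

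The open chromatin of the window was concentrated at the 3′ end and at 1 place in its middle. All 6 libraries had a peak in 12 of the 40 regions (30%, against 31.9% of all regions of the genome) and 16 regions came from 1 library (40%, against 27.9%). The shared 12 were R1, R2, R4, R11, R13, R14, R15, R16, R18, R31, R32 and R33. Of these, 9 lay in the first block of regions, from 114422743 to 114486031, and 3 in a block from 114551495 to 114575696. Blocks were parted by gaps of at least 10 kb without a peak in any library. The 4 other blocks held 10 regions, none of them shared by all libraries. The longest gap ran for 66.4 kb, from 114575697 to 114642142, without a peak in any library. The next longest, from 114515232 to 114531980, was 16.7 kb long.

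Each list gives for every peak a fold, which is the authors' pileup of fragments at the summit over the background of that library. The folds of each list were whole multiples of 1 step, within 2% of that step, for 100% of peaks. If 1 step stands for 1 overlapping fragment, as in peak callers that divide a pileup plus 1 by a background plus 1, a fold can be turned back into a count of fragments. The count is inferred and is not the depth of the library. The lowest fold in a list was 2.26 in CBE_1 replicate 1 and between 2.04 and 2.09 in the 5 other lists, on 14 to 19 inferred fragments. The shortest peak in every list was 200 bp. A region without a peak in a library is therefore not one at 0, since a signal that was too low, too short or not mappable would not be listed. The 95% intervals given for folds and ranks are exact Poisson intervals for that count. They cover counting error only.

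**Figure D1:**
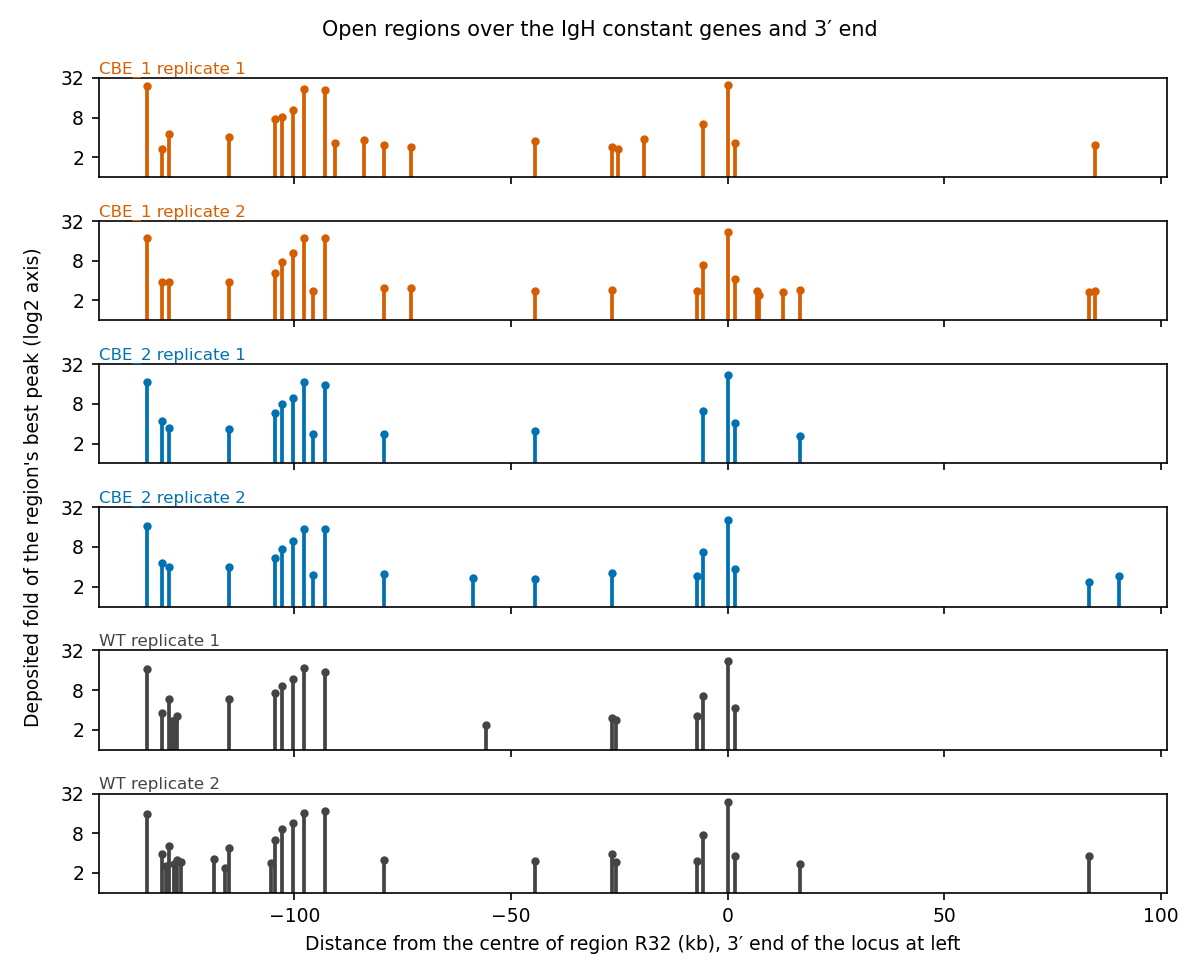
Deposited fold of the best peak of each member region (log2 axis) against the distance in kb from the centre of R32, with 1 panel per library and the 3′ end of the locus at left. Each line with a dot is 1 region. The tall group at the left and the tall region at 0 stand in all 6 libraries, while the low regions between them differ from library to library.

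The region with the highest fold in the window stood alone in its middle. R32, at 114557805 to 114559950, had folds of 24.6 and 21.9 in CBE_1, 21.8 and 20.7 in CBE_2, and 22.4 and 23.5 in WT. The folds of CBE_1 and WT overlapped, and both CBE_2 folds lay below them. The nearest values were 21.8 in CBE_2 replicate 1 and 21.9 in CBE_1 replicate 2. The 95% interval of the lowest value, 17.9 to 23.9 in CBE_2 replicate 2, reached past all others but CBE_1 replicate 1. The next regions on either side of R32 were much lower. R31, at 114552705 to 114553576, had folds of 6.33 and 6.78 in CBE_1, 6.13 and 6.66 in CBE_2, and 6.49 and 7.47 in WT. R33, at 114560191 to 114560790, had 3.32 and 4.17 in CBE_1, 4.05 and 3.65 in CBE_2, and 4.22 and 3.63 in WT. In both, the values of the 3 lines overlapped.

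At the 3′ end stood the 3 regions next in height, each over 3 kb long. Their folds were 79.5% to 97.5% of that of R32 in the same library in CBE_1, 69.7% to 79.8% in CBE_2 and 66.2% to 78.3% in WT. R1, the outermost region of the window at 114422743 to 114427071, had folds of 24.0 and 17.9 in CBE_1, 17.4 and 16.4 in CBE_2, and 16.7 and 15.8 in WT. Both CBE_1 libraries were above both WT libraries, and the CBE_2 values lay on either side of WT replicate 1. R16, at 114459460 to 114462848, had folds of 21.9 and 17.6 in CBE_1, 16.9 and 14.9 in CBE_2, and 17.5 and 16.4 in WT. R18, at 114464187 to 114467627, had 21.1 and 17.4 in CBE_1, 15.2 and 15.03 in CBE_2, and 14.8 and 17.2 in WT. In R16 and R18 the CBE_1 libraries had the highest folds, with CBE_1 replicate 1 far above replicate 2 of the same line. CBE_1 replicate 1 was also the list with the widest step, 0.151 against 0.104 to 0.123 in the others, so each of its fragments moved a fold most. R1 rested on 158 and 171 inferred fragments in CBE_1, 141 and 152 in CBE_2, and 153 and 143 in WT.

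Towards R16 the folds climbed in steps from the centromeric side in all 6 libraries. R13, at 114453894 to 114454729, had folds of 7.69 and 5.21 in CBE_1, 5.89 and 5.48 in CBE_2, and 7.36 and 6.37 in WT. R14, at 114455255 to 114456585, had 8.14 and 7.61 in CBE_1, 8.09 and 7.52 in CBE_2, and 9.09 and 9.34 in WT. R15, at 114458008 to 114459195, had 10.6 and 10.5 in CBE_1, 9.69 and 9.99 in CBE_2, and 11.7 and 11.5 in WT. Within every library the order was R13, R14, R15, R16, so these neighbours formed an ascending series. In R14 and R15 both WT folds were above all 4 folds of the mutated lines.

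Lower shared regions lay between R1 and this series. R4, at 114429505 to 114430237, had folds of 4.52 and 3.75 in CBE_1, 3.43 and 3.97 in CBE_2, and 5.84 and 5.05 in WT. R11, at 114443509 to 114444105, had 4.07 and 3.86 in CBE_1, 3.31 and 3.97 in CBE_2, and 5.84 and 4.83 in WT. In both, the WT folds were the highest pair and did not overlap with those of the mutated lines. R2, at 114427785 to 114428797, ran the other way for CBE_2, with folds of 2.71 and 3.86 in CBE_1, 4.41 and 4.51 in CBE_2, and 3.57 and 3.85 in WT. The CBE_1 value of 2.71 was inferred from 17 fragments, with a 95% interval of 1.64 to 4.26.

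The other 28 regions were weak wherever they occurred. Their folds ran from 2.36 to 3.85, below the median fold of every list (4.11 to 4.67), and from 17 to 34 inferred fragments. Of these regions 12 were present in 2 to 5 libraries and 16 in 1 library, of which 4 and 3 were found in the CBE_1 libraries, 0 and 2 in those of CBE_2, and 2 and 5 in those of WT. Regions found in both WT libraries and in no mutated library numbered 3 of 40 (7.5%, against 8.68% of all regions of the genome). They were R6 at 114430886 to 114431125, R7 at 114431510 to 114432097 and R27 at 114532893 to 114533120. R7, the highest, had WT folds of 3.25 and 3.19, with a 95% interval of 2.15 to 4.56 for the lower value. R6 had 2.70 and 2.75, and R27 had 2.81 and 2.97. With lists of the same length, that of the shortest, none of the 3 remained in this class. The count was 8 when WT replicate 1 was left out and 5 without WT replicate 2, since regions of the remaining WT library alone then fall into the class. No genome share is given for the counts under these other settings. R6 and R7 stood in a string from R3 to R8 beside R4, in which R5 was found in WT replicate 1 alone and R3 and R8 in WT replicate 2 alone, so that R4 was the single region of the string with a peak in a mutated line.

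A peak in all 4 mutated libraries with none in WT occurred in no member, against 1.52% of the genome. Regions found in both CBE_1 libraries alone numbered 2 of 40 (5%, against 0.667% of the genome). R22, at 114485628 to 114486031, had CBE_1 folds of 2.87 and 3.13, with summits at 114485871 and 114485873. R39, at 114643511 to 114643917, had CBE_1 folds of 3.02 and 2.81. R22 lay at percentile 8.55 and 28.3 of all peaks in those lists. No region was found in CBE_2 alone in both libraries (3.14% of the genome), none was missing from CBE_1 alone (5.05%) and none from CBE_2 alone (0.653%). R17, at 114463145 to 114463378 between R16 and R18, had a peak in 3 mutated libraries and in neither WT library, with folds of 2.81 in CBE_1 replicate 2 and 2.82 and 3.01 in CBE_2. On the other side of the long gap there were 3 weak regions, R38 to R40, and none of them had a peak in CBE_2 replicate 1 or WT replicate 1.

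Peaks in the window numbered 26 and 26 in CBE_1, 19 and 21 in CBE_2, and 21 and 29 in WT. They made up 0.0360% and 0.0324% of the CBE_1 lists, 0.0201% and 0.0215% of the CBE_2 lists, and 0.0187% and 0.0273% of the WT lists. The Wilson 95% intervals of all 6 shares overlapped, from 0.0245 to 0.0527 in CBE_1 replicate 1 to 0.0122 to 0.0286 in WT replicate 1. The bases covered differed little, at 20989 and 21354 in CBE_1, 19736 and 20551 in CBE_2, and 21198 and 23355 in WT. The lists themselves held 72318 and 80242 peaks in CBE_1, 94665 and 97522 in CBE_2, and 112241 and 106056 in WT.

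Folds of different lists have different backgrounds, so lines were compared by rank. The best fold of each library in a region was turned into a percentile among the 47767 regions present in all 6 libraries, where 0 is the lowest and 100 the highest. A region counts as higher in a line when both of its libraries lie above both libraries of the other line, and lower in the reverse case. Many regions meet this rule throughout the genome, and the counts below are read against that background. A split of 6 libraries into WT and mutated has 15 forms, so a one-sided exact permutation p cannot go below 0.0667, and no test was made.

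CBE_1 ranked higher than WT in 6 of 12 shared members (50%, against 36.9% of shared regions in the genome) and lower in 1 (8.33%, against 33.6%). The 6 were R1, R14, R15, R16, R18 and R31, and the lower region was R32. In R14 and R15 CBE_2 ranked lower than WT, while the folds of both mutated lines were below those of WT, so the place of CBE_1 differs between fold and rank. CBE_1 above and CBE_2 below WT in rank was met by 2 of 12 members (16.7%, against 5.08% in the genome). In R31 the percentiles were 48.5 and 50.8 in CBE_1, against 36.8 and 44.5 in WT. In R1 they were 88.6 and 85.7 in CBE_1, against 81.7 and 78.4 in WT. The median difference over the 12 was 2.83 percentile points, beside 0.390 over all shared regions. The duplicates of a line lay a median of 3.81 points apart in CBE_1 and 4.89 in WT over the same 12 regions. These gaps carry no sign, while differences of opposite sign offset each other in the median difference, so the measures cannot be compared directly. By the mean fold of the peaks of a region, in place of the highest, 4 of 12 were higher (33.3%, against 34.5% in the genome), with R1 and R18 no longer among them. Lower regions numbered 2 of 12 without CBE_1 replicate 1 (41.1% in the genome), 2 of 12 without its duplicate (42.7%) and 3 of 12 without WT replicate 2 (40.0%).

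CBE_2 ranked higher than WT in 2 of 12 (16.7%, against 33.2% in the genome) and lower in 6 (50%, against 33.2%). R1 and R2 were higher, and R4, R11, R13, R14, R15 and R32 were lower. The lower regions included the outer part of the ascending series, R13 to R15, and the low regions R4 and R11. The low regions R2 and R33 did not follow, since R2 was higher in CBE_2 and in R33 the libraries overlapped. R11 had percentiles of 5.02 and 12.5 in CBE_2, against 30.8 and 20.7 in WT, and R4 had 6.23 and 12.5 in CBE_2, against 30.8 and 23.1 in WT. These were the largest differences of CBE_2 from WT among the 12, at -16.9 and -17.5 points. Over all 12 the median difference was -1.61 points, beside 0.0623 over all shared regions. Without WT replicate 1, when 14 members were shared by the other libraries, 10 of 14 were lower, against 41.5% in the genome. This comparison shares the WT libraries with that of CBE_1.

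**Figure D2:**
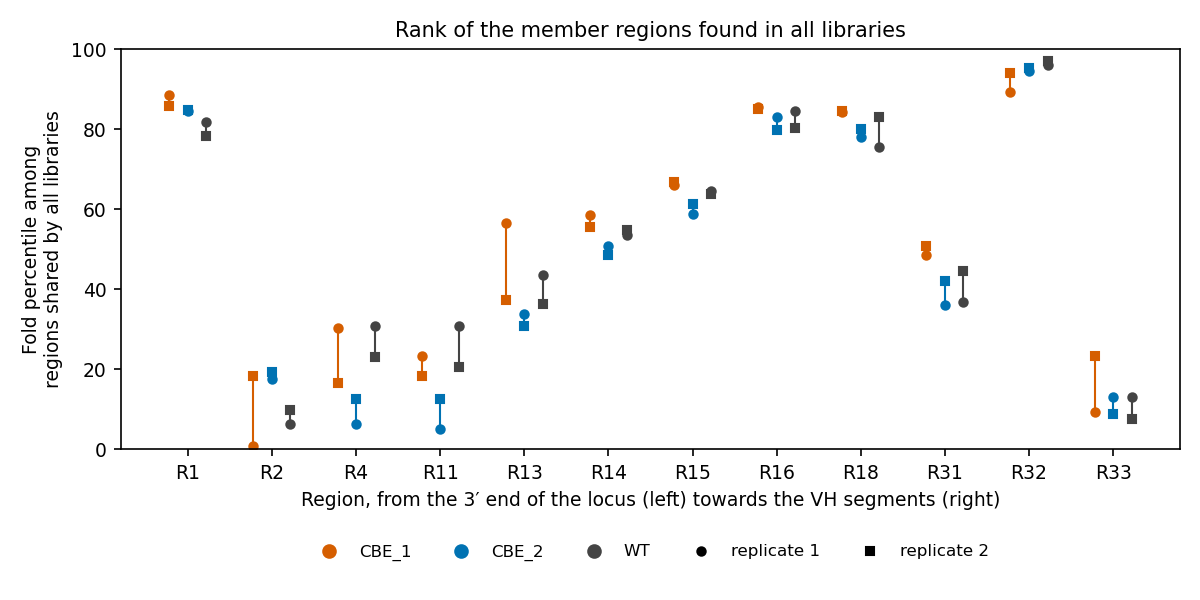
Fold percentile of the 12 member regions present in all libraries, among the 47767 regions so shared, for CBE_1, CBE_2 and WT. Circles are replicate 1, squares replicate 2, and a line joins the libraries of 1 cell line. By the mean of its libraries, each line ranks the regions in a like order, with exceptions. R1 and R16 change places between WT and the mutated lines, and R2, R4, R11 and R33 stand in another order in CBE_2. CBE_2 lies below CBE_1 in most regions, R4 and R11 included.

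The libraries of the mutated lines were also apart from each other, in 10 of 12 members (65.6% in the genome), beside 7 for CBE_1 against WT (70.5%) and 8 for CBE_2 against WT (66.4%). CBE_1 ranked higher than CBE_2 in 9 of 12 members (75%, against 34.1% in the genome) and lower in 1 (8.33%, against 31.5%). The exceptions were R32, which was lower, and R2 and R33, where the libraries overlapped. The median difference was 5.90 points, beside 0.342 over all shared regions. The widest differences among the 9 were in R13, with 56.6 and 37.3 in CBE_1 and 33.9 and 30.7 in CBE_2, and in R4, with 30.4 and 16.6 in CBE_1, against 6.23 and 12.5 in CBE_2. For both regions, CBE_1 replicate 1 stood far above CBE_1 replicate 2. By mean fold 7 of 12 were higher (31.4% in the genome) and none lower. Lower regions numbered 2 of 12 without CBE_1 replicate 2 (41.6% in the genome) and 3 of 14 without CBE_2 replicate 1 (38.6%), and none was lower when ranks were taken within chromosome 12. Whether the excess over the genome differs from chance was not tested, since neighbouring regions and duplicate libraries are not independent.

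Against WT, both mutated lines moved together in 2 of 12 members (16.7%, against 40.4% in the genome). In R1 each of the 4 mutated libraries ranked above each WT library (1 of 12, 8.33%, against 20.3% in the genome). R32 was lower in all 4 (8.33%, against 20.1%), at 89.4 and 94.1 in CBE_1 and 94.5 and 95.3 in CBE_2, against 96.0 and 97.1 in WT. At that height 1 point of rank spans a wide range of folds, and CBE_1 replicate 1 had the highest fold of the 6 in R32 and the lowest percentile. By the mean fold of the peaks of a region R1 was no longer higher in all 4, and the count was 0. Leaving out WT replicate 2 gave 2 of 12 higher and 3 of 12 lower regions (26.6% and 26.4% in the genome). Leaving out WT replicate 1 gave 2 of 14 higher and 1 of 14 lower (26.7% and 26.0%), and leaving out CBE_1 replicate 1 gave 2 of 12 each way (23.6% and 22.8%).

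The counts behind single libraries gave intervals that were wide beside these differences. Overlap of such intervals is not a test of a difference, so it does not decide whether the lines differ. The 95% interval of a single percentile, from the inferred number of fragments, spanned a median of 22.2 points and at least 7.49. For R11 in CBE_2 replicate 2, at 12.5, it ran from 1.67 to 30.1, and for R11 in WT replicate 2, at 20.7, from 6.99 to 36.8. Of the 7 members that CBE_1 and WT ranked apart, none had intervals that were apart as well, and the same held for the 8 of CBE_2 against WT, the 10 of CBE_1 against CBE_2 and the 2 of both mutated lines against WT. The duplicates thus lay on the same side in each case, while the intervals of their counts overlapped.

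**Figure D3:**
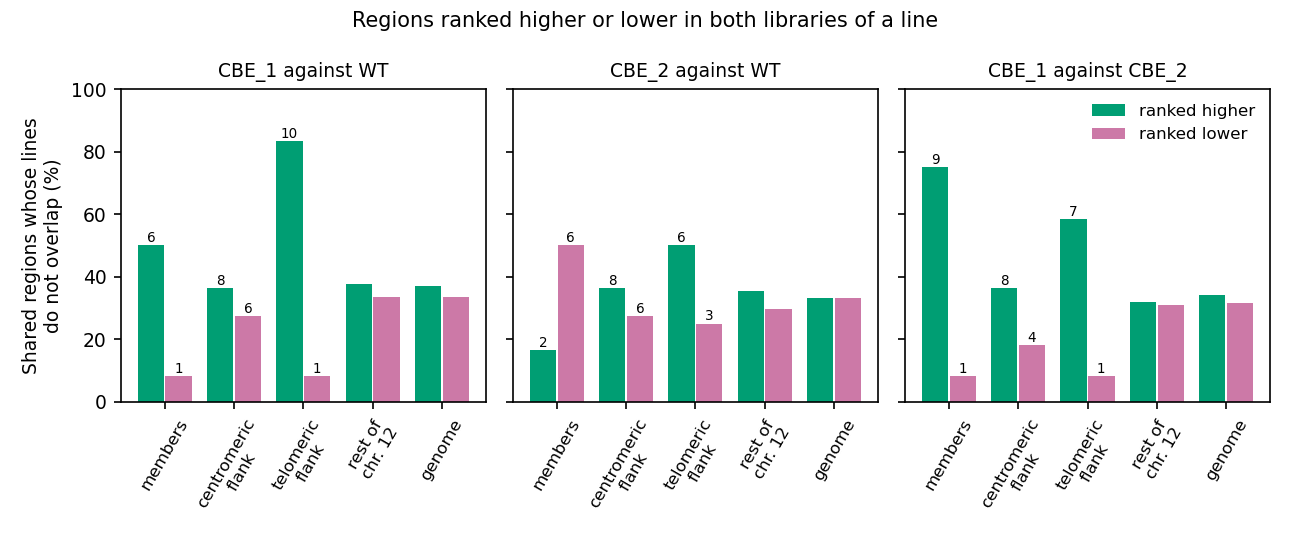
Share (%) of regions present in all 6 libraries whose libraries do not overlap between lines, ranked higher or lower in the first line named, for the 12 members, the flanks of 235 kb on either side, the rest of chromosome 12 and the genome. Numbers over bars are counts of regions. Members have more lower than higher ranks in CBE_2 against WT (6 and 2), unlike either flank.

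The flanks of the same length were set beside the window as a description, and the differences were not tested. The centromeric flank held 61 regions, 22 of them in all 6 libraries, and the telomeric flank, which begins at the border of the rule on the J and D side, held 26, of which 12 were in all 6. CBE_1 ranked higher than WT in 8 of 22 regions of the centromeric flank and in 10 of 12 of the telomeric flank. This compared with 6 of 12 members and 36.9% of shared regions in the genome. CBE_2 ranked lower than WT in 6 of 22 and in 3 of 12, against 6 of 12 members (33.2% in the genome). The median difference of CBE_1 from WT was 1.13 points in the centromeric flank and 21.1 points in the telomeric flank, against 2.83 among members. CBE_1 ranked higher than CBE_2 in 8 of 22 and in 7 of 12, against 9 of 12 members (34.1% in the genome). The median difference of CBE_1 from CBE_2 was 0.869 points in the centromeric flank and 11.4 points in the telomeric flank, against 5.90 among members. The shift of CBE_1 towards higher ranks, against WT and against CBE_2, was thus wider in the telomeric flank than among the members of the window.

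The telomeric border of the rule fell beside an open region. The region at 114653882 to 114656527 had its midpoint 204.5 bp outside, with folds of 5.43 and 5.94 in CBE_1, 3.56 and 3.44 in CBE_2, and 6.92 and 6.48 in WT. CBE_2 was the lowest line there. Its percentiles of 7.53 and 6.53 compared with 40.4 and 37.2 in WT and 41.1 and 44.4 in CBE_1. In R4 and R11 CBE_2 was also the lowest line by percentile, while its folds overlapped with those of CBE_1. The last region inside, R40, was found in CBE_2 replicate 2 alone, with a fold of 2.90. On the other border R1 was the first region inside. The nearest region outside, at 114404520 to 114407198, had folds of 37.4 and 27.1 in CBE_1, 26.2 and 24.7 in CBE_2, and 26.0 and 27.1 in WT, above any member.

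The summit, the point of highest pileup, lay at nearly the same place in all libraries in some shared regions and moved in others. Summits of the 6 libraries lay within 20 bp of one another in R18, 51 bp in R15, 59 bp in R14 and 61 bp in R32. The median range over the 12 was 93 bp, against 100 bp over all shared regions. R16 had the widest range, 538 bp. Its summits were at 114460551 and 114460552 in CBE_1, 114460817 and 114460909 in CBE_2, and 114461070 and 114461089 in WT. The duplicates lay 1, 92 and 19 bp apart, and the mean summit of CBE_1 was 528 bp and that of CBE_2 216.5 bp on the 3′ side of the WT summit.

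The edges of R16 did not move with its summit. Its start lay within 19 bp and its end within 29 bp in all 6 libraries, closeness at both edges that 72 of 47767 shared regions had (0.151%). The bases covered by R16 were 3376 and 3375 in CBE_1, 3367 and 3360 in CBE_2, and 3341 and 3365 in WT. A list gives 1 summit per peak, so lower maxima within R16 are not known, and a summit in a broad peak can pass between maxima of nearly the same height. R16 was the 1 member of 12 where all 3 lines had separate summits (8.33%, against 7.88% of the genome). Across the genome 220 shared regions with all 3 lines apart had CBE_1 and WT summits at least as far from each other. By pairs of lines, summits were apart in 4 of 12 members for CBE_1 against WT (36.7% in the genome), 4 for CBE_2 against WT (35.9%) and 6 for CBE_1 against CBE_2 (36%). Only R16 remained in each pair when the summits had to be at least 50 bp apart, a limit chosen after seeing the data. With any 1 library left out, which makes an overlap less likely, 2 to 4 members had all 3 lines apart. No genome share is given for the 50 bp limit or for the left-out libraries, so these counts do not mark R16 as unusual.

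**Figure D4:**
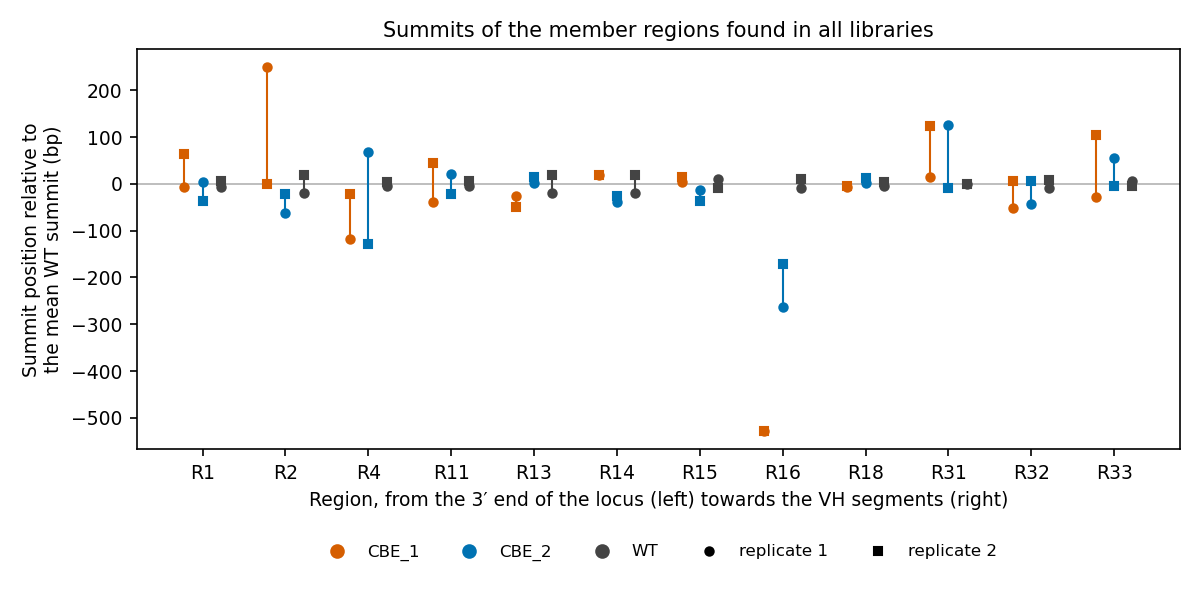
Position of the summit in bp relative to the mean WT summit, for the 12 member regions present in all libraries, by line and library (circles replicate 1, squares replicate 2, joined within a line). R16 has the CBE_1 summits lowest, those of CBE_2 between and those of WT at 0, while most other summits lie close to 0.

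The width of the shared regions followed the lines in part. CBE_1 covered fewer bases than WT in 4 of 12 members (52.6% of shared regions in the genome) and more in 2 (11%). CBE_2 covered fewer than WT in 7 (36.8%) and more in 1 (22.3%). CBE_1 covered fewer than CBE_2 in 1 (44.8%) and more in 5 (11.7%). R11, one of the low regions, was narrowest in CBE_2, with 450 and 422 bp in CBE_1, 284 and 409 bp in CBE_2, and 524 and 597 bp in WT. R11, R13 and R14 were narrower in all 4 mutated libraries than in WT (3 of 12, 25%, against 28.8% in the genome). R32 was the 1 member wider in all 4 mutated libraries (8.33%, against 7.36% in the genome). It covered 1978 and 2069 bp in CBE_1, 2055 and 1969 bp in CBE_2, and 1933 and 1958 bp in WT. The widest library of a member covered a median of 1.19 times the bases of the narrowest, against 1.53 over all shared regions, and 2.48 times in R2, 2.46 in R33 and 2.10 in R11.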

How the data were processed

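Peaks of single-read ATAC-seq libraries were analysed, 2 for each of CBE_1, CBE_2 and WT, called per library. Per the submitters' processing notes, Trimmomatic, Bowtie2, SAMtools and Picard were used with build mm9; the peak caller is not given in the sources used here. The authors deposited for each peak a fold (a ratio over background), a −log10 p-value, a −log10 q-value, a score and a summit offset. The deposited score follows the −log10 q-value. Read totals are not in the lists, so depth is unknown.

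Peaks were merged at 1 bp overlap (Python 3.11.15, NumPy 2.4.6, SciPy 1.17.1). Ranks used the best fold per region and library. The steps were tested on simulated data. All 12 regions present in every library were named, with regions present in or missing from 1 line (R17 lacks WT peaks); R38 to R40 and the string from R3 to R8 were singled out after their values were seen. The members and lists were chosen with earlier results of these data known. Alternatives covered overlap, list length, ranking measure, window rule and left-out libraries.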

Additional observations from a re-analysis of the deposited data

Results flagged for a closer look

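In R14 and R15 the mutated lines lay on opposite sides of WT in fold percentile. R14 had fold percentiles of 58.6 and 55.7 in CBE_1 and 50.9 and 48.5 in CBE_2, against 53.7 and 54.9 in WT, and CBE_1 minus CBE_2 was 7.43 points. R15 had 66.1 and 66.8 in CBE_1 and 58.7 and 61.2 in CBE_2, against 64.6 and 63.9 in WT, and CBE_1 minus CBE_2 was 6.48 points. Each was picked out because both CBE_1 libraries were above and both CBE_2 libraries below both WT libraries. The difference was not tested. This pattern held in 2 of 12 shared members (16.7%, against 5.08% of shared regions in the genome). By the deposited fold itself both mutated lines were below WT, with R14 at 8.14 and 7.61 in CBE_1 and 8.09 and 7.52 in CBE_2, against 9.09 and 9.34 in WT, and R15 at 10.6 and 10.5 in CBE_1 and 9.69 and 9.99 in CBE_2, against 11.7 and 11.5 in WT. With the better 50% of each list, CBE_1 and WT overlapped in R14.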

How the results depend on the processing

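The 25 called differences in rank were followed through the 5 alternatives that could move them either way (120 comparisons). Of these, 5 lost the call with the same direction, 3 lost it with a change of sign and 112 did neither. The changes of sign came with the mean fold of the peaks of a region. There CBE_1 minus CBE_2 was -5.21 points in R1, -2.17 in R18 and 5.69 in R32. Regions with several peaks in some libraries take part in this. By mean fold, regions higher in both mutated lines than WT numbered 0 of 12 (19.1% in the genome). Those lower in CBE_1 than CBE_2 also numbered 0 (29.7%). CBE_1 was higher than WT in 4 of 12 (34.5%) and higher than CBE_2 in 7 of 12 (31.4%). With the better 50% of each list 12 members were left, 1 of them in 1 library, and the share of CBE_1 replicate 2 was 0.0199%. Of the 8 members then shared by all libraries, 1 was higher in CBE_2 than WT (33.1% in the genome). With lists of the same length no member was found in WT alone (0, genome share not given). With any overlap with the window 2 members had summits apart in all 3 lines. With ranks within chromosome 12, 0 of 12 were lower in CBE_1 than CBE_2 (29.2% of the regions so ranked). Ranking by −log10 p-value, and the window rule for the ranks of these regions, gave identical values and so test nothing. With summits at least 50 bp apart, chosen after seeing the data, 1 member remained in each pair of lines, with no genome share given. The cause was not tested.

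Leaving out 1 library at a time gave 3 to 8 members in WT alone (genome share not given). In both mutated lines 1 to 2 members ranked higher than WT (22.7% to 26.7% in the genome) and 1 to 3 lower (22.6% to 26.4%). CBE_1 ranked lower than WT in 1 to 3 (33.5% to 42.7%) and lower than CBE_2 in 1 to 3 (31.5% to 41.6%). CBE_2 ranked lower than WT in 6 to 10 (32.7% to 41.9%). No genome share is given for the counts of summits and bases covered that follow. Summits were apart in all 3 lines in 2 to 4 members, in 4 to 9 for CBE_1 against WT, 4 to 9 for CBE_2 against WT and 6 to 11 for CBE_1 against CBE_2. Bases covered were apart in 6 to 11 for CBE_1 against WT and 6 to 11 for CBE_1 against CBE_2. With 1 library left in a line, its values overlap less by construction, and 12 to 14 members were then shared, so these ranges show no stability. No paired analysis was possible because the labels give no replicate numbers that pair libraries across lines.

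A line has 2 libraries and the WT genotype 1 line. Weak regions lie near the lowest fold that a list holds, so their absence is not shown. Read depth is unknown, and intervals rest on inferred counts of fragments.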
